A study of Mus musculus with 8 samples.

Results

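MicroRNA-155 lowers the output of many messenger RNAs in lymphocytes and myeloid cells, and 10 of its best known mouse targets were followed here in the spleens of animals that lack it. The targets were chosen by name from the literature on immune cells, with earlier results of these data known. These genes are Inpp5d, Socs1, Spi1, Cebpb, Bach1, Jarid2, Sla, Wee1, Cyld and Maf. A feature, the array's unit of measurement for 1 transcript, was taken as theirs when the array annotation gave it the gene's name. Spi1 appears there under its older name Sfpi1 and was matched through its Entrez gene number. In this way 9 of the 10 genes were matched, by 21 of the 44170 features and out of 24171 named genes. No feature was matched to Cebpb, which is not analysed here.

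A microRNA guides an Argonaute protein to messenger RNAs by pairing of its seed, a short stretch near its 5′ end, usually with sites in the 3′ untranslated part of the message. The paired message is translated less and is often degraded sooner, so a target may, but need not, be more abundant when the microRNA is missing. In activated B cells, T cells, macrophages and dendritic cells miR-155 is strongly induced, and its known targets include brakes on cytokine, antigen receptor and phosphoinositide signalling as well as transcription factors. The mature strands from the mouse hairpin, as held by RefSeq on build GRCm38.p6, are shown because the seed of the 5p strand is what defines a miR-155 target. In capitals are bases 2 to 8, the seed, written 5′ to 3′.

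mmu-miR-155-5p: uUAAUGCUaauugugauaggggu

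mmu-miR-155-3p: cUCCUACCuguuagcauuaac

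The 5p strand lies at chr16:84714143-84714165 on the plus strand and the 3p strand at chr16:84714182-84714202, also on the plus strand. A site that pairs with the whole 5p seed reads AGCAUUA in the message. The seeds of the strands differ, so the 2 strands form no shared seed group. Target sites within the 9 genes were not analysed here.

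Total RNA came from 4 miR-155 knockout spleens, of animals named Mim1-5, Mim1-6, Mim2-2 and Mim2-3, and from 4 wild-type spleens, WT-1 to WT-4, with 1 array of 1 colour (Cy3) for each animal. Mim1-5, Mim1-6, WT-1 and WT-3 were labelled female, while Mim2-2, Mim2-3, WT-2 and WT-4 were labelled male. Among knockouts the labelled sex and the name prefix (Mim1 or Mim2) therefore coincide and cannot be told apart. Strain, age, the design of the deleted allele and any treatment are not given in the sources used here.

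All levels below are log2 of the deposited RMA intensity, and all differences are knockout minus wild type on that scale. The array medians lay between 6.81 and 6.90, and the random probes, which match no transcript and mark the background, between 4.94 and 5.24. The arrays of Mim2-2 and Mim2-3 stood apart over all features, correlating at r = 0.811 to 0.877 with the other 6 arrays, which correlated among themselves at 0.911 to 0.943. With each other Mim2-2 and Mim2-3 correlated at 0.874, inside their range with the other 6, so they were not especially alike. Because both stood apart from the rest, results are also given without them. The limma fit without them kept labelled sex as a term, and the knockouts left in it were all labelled female. Its differences are therefore those of Mim1-5 and Mim1-6 from WT-1 and WT-3 alone. They equal the differences within labelled females given below and are no second check on those. The labelled sexes were not told apart by sex-linked genes: the Y-linked Ddx3y averaged 7.76 in labelled males and 7.82 in labelled females, so the labels are used only as labels. BIC, the transcript that carries miR-155, has a feature at chromosome 16 from 84713276 to 84715489 in build MM9. It read 7.51, 5.37, 5.28 and 5.46 in Mim1-5, Mim1-6, Mim2-2 and Mim2-3, against 5.27, 4.84, 4.85 and 5.63 in WT-1 to WT-4. With 7 of these values near the random probes and the probes' place relative to the deletion unknown, this feature checks nothing about the genotype.

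Of the 9 measured targets, 5 read higher in the knockout and 4 lower, and none passed the genome-wide test. The median difference was 0.48, beside 0.06 over all 24171 genes, of which 53.9% had a difference above 0 and 46.1% below 0. In limma with labelled sex as a term, adjusted p over all features ran from 0.278 to 0.875 for the 9 genes, and 0 of 44170 features (0.0%) passed 0.05, the smallest adjusted p of any being 0.224. At an unadjusted p under 0.05, Inpp5d and Sla were higher, where 7.7% of all genes were higher and called so, and Bach1 and Wee1 were lower, where 6.62% were. In Inpp5d and Sla every knockout array lay above every wild-type array, as in 5.27% of all genes, and 0 targets lay wholly below the wild type, as 2.56% of genes did. Because spleens were profiled in bulk, a change in the number of cells of a type and a change in RNA per cell cannot be told apart. Markers not typical of spleen also differed between the genotypes. Mean mammary markers were 7.75 to 10.90 in the knockout, against 11.38 to 11.66 in the wild type. Mean pancreas markers were 6.58 to 7.18 in the knockout, against 5.59 to 5.71 in the wild type. Their part in the values of the targets and pathway genes was not tested.

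**Figure D1:**
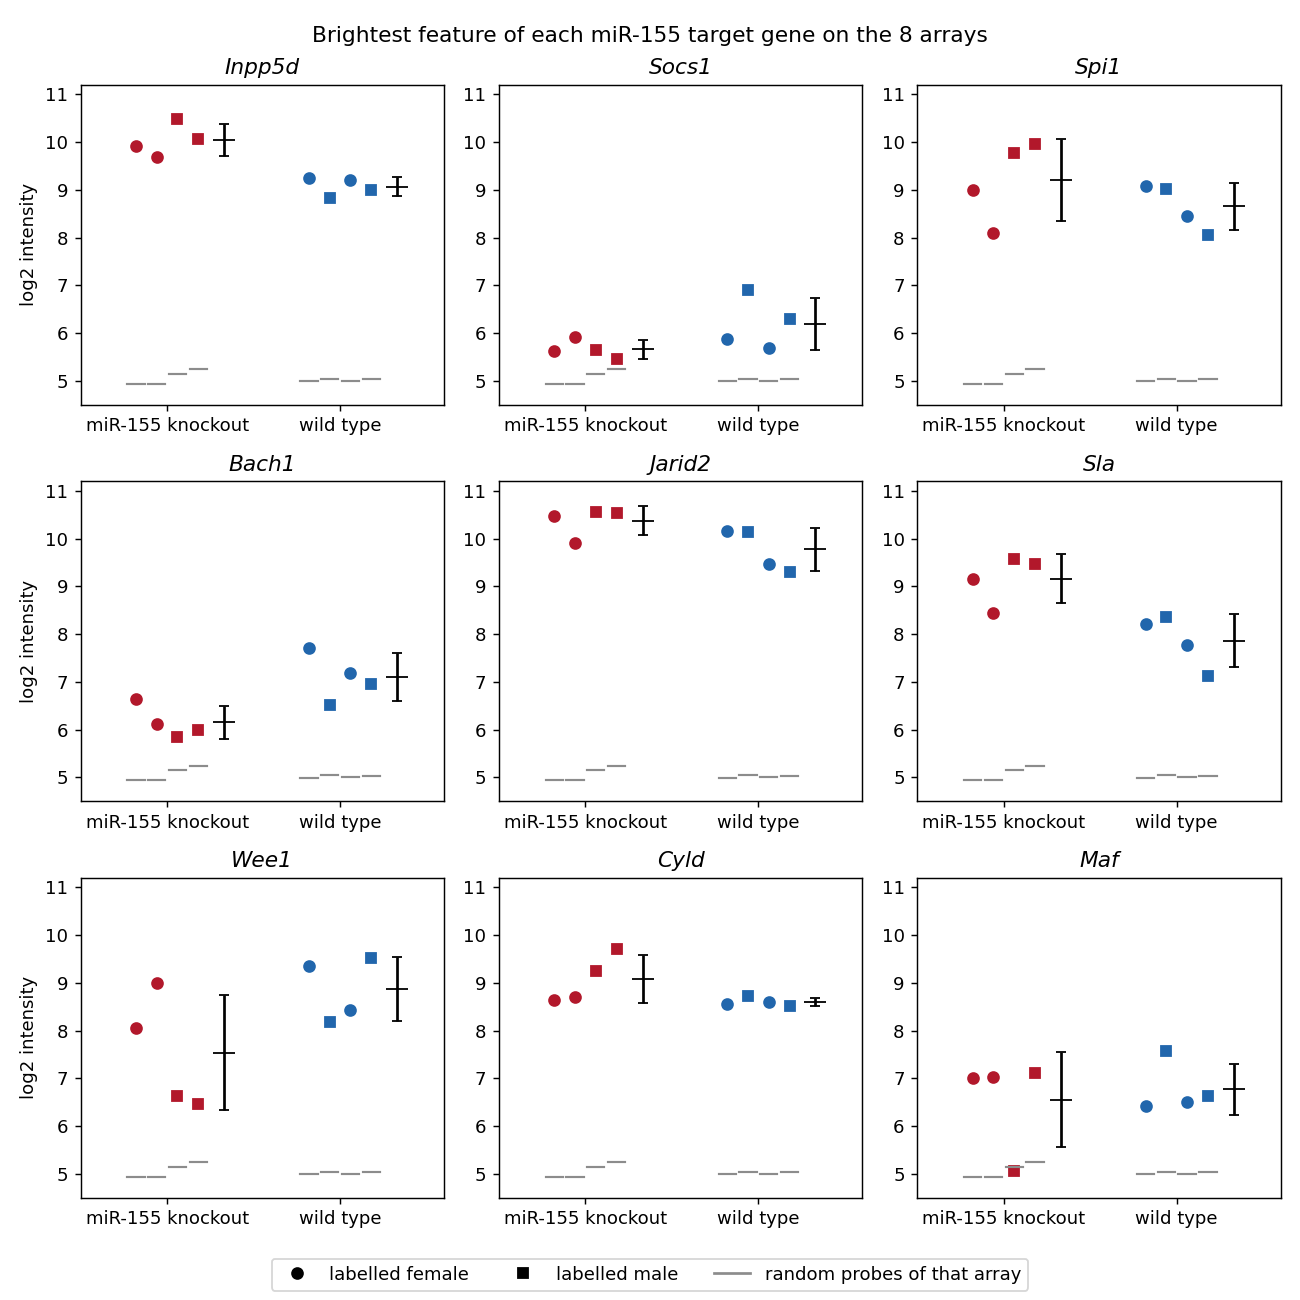
Log2 intensity (vertical axis) of the brightest feature of each of the 9 measured miR-155 targets, with the 4 knockout arrays at the left of each panel and the 4 wild-type arrays at the right; circles are labelled females, squares labelled males, grey ticks the random probes of that array, and black bars the mean and SD. Inpp5d and Sla do not overlap between the genotypes, while 3 of 4 knockout arrays lie below all wild-type arrays for Bach1, Wee1 and Socs1.

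Among the signalling brakes, Inpp5d and Sla were higher on every knockout array. Inpp5d encodes SHIP1, an inositol phosphatase that dampens phosphoinositide 3-kinase (PI3K) signalling in blood cells. Its brightest feature, at chromosome 1 from 89516886 to 89617083 (MM9), read 9.92, 9.68, 10.48 and 10.07 in Mim1-5, Mim1-6, Mim2-2 and Mim2-3, against 9.25, 8.82, 9.21 and 8.999 in WT-1 to WT-4. The lowest knockout value, that of Mim1-6, was above the highest wild-type value, that of WT-1. The means were 10.04 ± 0.34 in the knockout, against 9.07 ± 0.20 in the wild type (SD, n = 4 each), a difference of 0.97 ± 0.29 (SE), or 1.96-fold (limma adjusted p = 0.281; exact two-sided permutation p = 0.0286, the smallest that 70 arrangements of the arrays can give).

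Sla encodes the Src-like adaptor protein SLAP, which promotes the degradation of T and B cell antigen receptor complexes. Its brightest feature, at chromosome 15 from 66612425 to 66644155, read 9.15, 8.44, 9.58 and 9.47 on the knockout arrays in the same order, against 8.21, 8.35, 7.77 and 7.12 on the wild-type arrays. Mim1-6 lay just above WT-2, and the other 3 knockout arrays lay well above all wild-type arrays. The difference was 1.30 ± 0.39 (SE), or 2.46-fold, the highest of the 9 targets (limma adjusted p = 0.278; exact permutation p = 0.0286). Without the Mim2 arrays the differences of Inpp5d and Sla were 0.57 and 0.80, at unadjusted p of 0.146 and 0.165 in limma.

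The brakes Socs1 and Cyld had smaller differences, of opposite sign. Socs1 inhibits JAK kinases downstream of interferon and interleukin receptors. Its only feature, at chromosome 16 from 10784176 to 10785626, read 5.63, 5.91, 5.64 and 5.45 in the knockout, against 5.87, 6.91, 5.68 and 6.29 in the wild type. These values stood little above the random probes, and 3 of the 4 knockout arrays lay below every wild-type array, with Mim1-6 among the wild types. The difference was -0.53 ± 0.33 (SE; limma adjusted p = 0.491; exact permutation p = 0.114), and it was -0.30 without WT-2. Without the Mim2 arrays it was -0.004, a value that sets Mim1-5 and Mim1-6 against WT-1 and WT-3 alone. The higher wild-type values, those of WT-2 and WT-4, do not enter it.

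Cyld encodes a deubiquitinase that restrains NF-kB signalling. Its brightest feature, at chromosome 8 from 91220973 to 91272352, read 8.65, 8.70, 9.24 and 9.71 in the knockout, against 8.55, 8.72, 8.61 and 8.52 in the wild type. Only the Mim2 arrays exceeded all wild-type arrays, and the Mim1 arrays lay inside their narrow range. The difference was 0.48 ± 0.29 (SE; limma adjusted p = 0.487; exact permutation p = 0.0857). It was 0.31 without Mim2-3 and 0.10 without both Mim2 arrays.

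Among the regulators of transcription and chromatin, Bach1 was lower in the knockout. BACH1 is a heme-sensing repressor of heme oxygenase and other antioxidant genes. Its brightest feature, at chromosome 16 from 87699277 to 87730948, read 6.65, 6.12, 5.84 and 5.98 in the knockout, against 7.72, 6.52, 7.19 and 6.96 in the wild type. All knockout values were below the wild-type mean and 3 of 4 were below every wild-type value, with Mim1-5 just above WT-2. The difference was -0.95 ± 0.29 (SE), 1.93-fold lower in the knockout (limma adjusted p = 0.281; exact permutation p = 0.0571). The gene begins 2983788 bp beyond the end of the BIC feature on the same chromosome. Its difference was -1.07 without the Mim2 arrays, where Mim1-5 and Mim1-6 were set against WT-1 and WT-3 alone. Those were the wild-type arrays with the highest values, so a larger size there is no sign of a stronger difference.

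Spi1 encodes PU.1, a transcription factor of myeloid and B cells. At chromosome 2 from 90937035 to 90955914, its only feature read 9.003, 8.09, 9.78 and 9.97 in the knockout, against 9.09, 9.02, 8.46 and 8.05 in the wild type. The Mim2 arrays were above all wild-type arrays, whereas the Mim1 arrays lay within the wild-type range. The difference of 0.55 ± 0.44 (SE; limma adjusted p = 0.590; exact permutation p = 0.343) became -0.23 without the Mim2 arrays. It was 0.20 without WT-4 and 0.36 without Mim2-3, and 0.89 and 0.84 without Mim1-6 and WT-1.

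Jarid2 encodes a subunit that helps Polycomb repressive complex 2 bind chromatin. At chromosome 13 from 44826271 to 45016346, its brightest feature read 10.47, 9.92, 10.56 and 10.54 in the knockout, against 10.17, 10.15, 9.47 and 9.31 in the wild type. Every knockout array was above the wild-type mean and 3 of 4 were above all wild-type arrays, the exception being Mim1-6. The difference was 0.60 ± 0.33 (SE; limma adjusted p = 0.446; exact permutation p = 0.0857), and 0.39 without WT-4. Without the Mim2 arrays it was 0.38.

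Maf encodes c-MAF, a transcription factor of helper T cells and macrophages. Its brightest feature, at chromosome 8 from 118229652 to 118230763, read 7.01, 7.02, 5.05 and 7.12 in the knockout, against 6.41, 7.57, 6.50 and 6.63 in the wild type. The value of Mim2-2 was below the random probes of that array (5.15), and the other 3 knockout values were above 3 of the 4 wild-type values. The difference was -0.22 ± 0.52 (SE; limma adjusted p = 0.875; exact permutation p = 0.8), and it was 0.35 without Mim2-2 and 0.12 without WT-2.

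Wee1, which encodes a kinase that holds cells back from mitosis by inhibiting CDK1, had the lowest difference of the 9 targets, carried by the Mim2 arrays. Its only feature, at chromosome 7 from 117265577 to 117286801, read 8.06, 8.998, 6.63 and 6.47 in the knockout, against 9.35, 8.19, 8.43 and 9.53 in the wild type. Mim1-6 lay inside the wild-type range, Mim1-5 just under it and both Mim2 arrays far under it. The difference was -1.34 ± 0.51 (SE), 2.53-fold lower in the knockout (limma adjusted p = 0.324; exact permutation p = 0.114). It was -0.87 without WT-4 and -0.36 without the Mim2 arrays, at an unadjusted p of 0.566.

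Compared array by array, the targets did not all differ in 1 direction. Mim1-5, Mim1-6 and Mim2-3 each read above the wild-type mean in 6 of 9 targets and Mim2-2 in 5 of 9, where 50.4% to 54.3% of all genes did so. Mim2-2 and Mim2-3 each exceeded every wild-type array in 5 targets, and Mim1-5 and Mim1-6 in 3 and 2. Below every wild-type array were 4 targets in Mim2-2, 3 in Mim2-3, 2 in Mim1-5 and 1 in Mim1-6. Over all genes the Mim2 arrays also left the wild-type range more often: 34.6% and 34.1% of genes exceeded every wild-type array in Mim2-2 and Mim2-3, beside 24% and 22.3% in Mim1-5 and Mim1-6. Below every wild-type array lay 26.6% of genes in Mim2-2, 28.1% in Mim2-3 and 19.9% in each of Mim1-5 and Mim1-6. The low counts of 2 and 1 targets in the Mim1 arrays and 3 in Mim2-3 (33.3%) were near that background. So were the high counts in Mim1-5 (33.3% of targets) and Mim1-6 (22.2%). With 9 targets no such share is precise, including those of Mim2-2, 55.6% above and 44.4% below.

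Within the labelled sexes, 7 of the 9 targets had a difference of the same sign in both, as 54.6% of all genes did. For Socs1 and Cyld that sign rests on values near 0 in females. Socs1 differed by -1.06 in males and -0.004 in females, and Cyld by 0.86 in males and 0.10 in females. Bach1 differed by about as much in each, -0.83 in males and -1.07 in females, while Wee1 differed by -2.31 in males and -0.36 in females and Inpp5d by 1.36 in males and 0.57 in females. Sla differed by 1.79 in males and 0.80 in females. The sexes had opposite signs for Spi1, with 1.34 in males and -0.23 in females, and for Maf, with -1.01 in males and 0.56 in females. The test of the difference between the sexes gave adjusted p of 0.369 to 0.885 for the 9 targets in limma, with 1 of 9, Wee1, at an unadjusted p under 0.05 (0.0465), as 13.6% of all genes were, and 0 of 44170 features (0.0%) passing. Within males, that is for the Mim2 arrays, 4.24% of features passed an adjusted p of 0.05, but none of the 9 targets did, Wee1 and Inpp5d coming nearest at 0.0673 and 0.0721. Within females 0.0% of features passed.

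**Figure D2:**
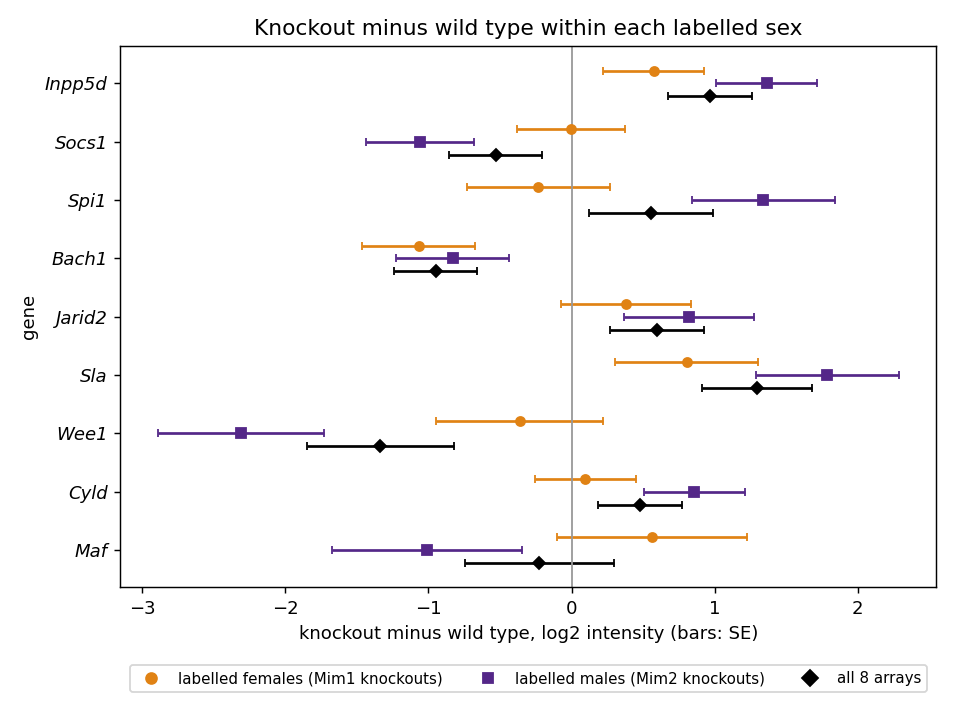
Knockout minus wild type in log2 intensity (horizontal axis, bars SE) for the 9 targets within labelled females, within labelled males and over all 8 arrays. Bach1 lies below 0 in both sexes, Inpp5d and Sla above 0 in both, and Spi1 and Maf on opposite sides.

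For 6 of the 9 genes the array holds more than 1 feature, and these were set beside the brightest. In Bach1, Inpp5d and Sla all features of a gene had the same sign. The second Bach1 feature, at chromosome 16 from 87699198 to 87723165, read 5.61, 5.80, 4.94 and 5.28 in the knockout, against 7.64, 6.78, 6.54 and 6.73 in the wild type. Here no knockout value reached the lowest wild-type value, with a difference of -1.51 ± 0.32 (SE; limma adjusted p = 0.262; exact permutation p = 0.0286), and Mim2-2 lay under its random probes, so that the size is inexact. The second Sla feature differed by 0.78 ± 0.53 (SE) and overlapped between the genotypes.

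The second Inpp5d feature spans nearly the same stretch, chromosome 1 from 89516953 to 89617077, yet it divided the knockouts otherwise. It read 7.63, 7.25, 6.25 and 6.30 in Mim1-5, Mim1-6, Mim2-2 and Mim2-3, against 6.50, 6.49, 6.20 and 6.82 in WT-1 to WT-4. The Mim1 arrays were above all wild-type arrays and the Mim2 arrays were not, whereas on the brightest feature the Mim2 arrays were the highest. The difference was 1.09 in females and -0.38 in males (test of the difference between the sexes, limma adjusted p = 0.288), and 0.36 ± 0.36 (SE) over all arrays.

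Jarid2 and Cyld have 5 features each. In Jarid2, 2 were higher in the knockout and 3 lower, from -0.31 to 0.60, and the dimmest, with a mean of 4.80 in the knockout, against 4.88 in the wild type, was above the random probes on only 1 knockout and 2 wild-type arrays. In Cyld, 4 were higher and 1, the dimmest, lower, from -0.33 to 0.48. Maf has 2, which differed in sign: the dimmer, at chromosome 8 from 118206841 to 118230772, read 6.30, 5.31, 7.20 and 5.98 in the knockout, against 5.73, 4.88, 6.44 and 4.05 in the wild type. Its difference was 0.92 ± 0.57 (SE), inexact because only 2 of the 4 wild-type arrays exceeded the random probes. It was 2.13 in males and -0.28 in females (test of the difference between the sexes, limma adjusted p = 0.286), so that it turned negative without the Mim2 arrays. With the mean of all features in place of the brightest, Maf differed by 0.35, Jarid2 by 0.16 and Cyld by 0.21.

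**Figure D3:**
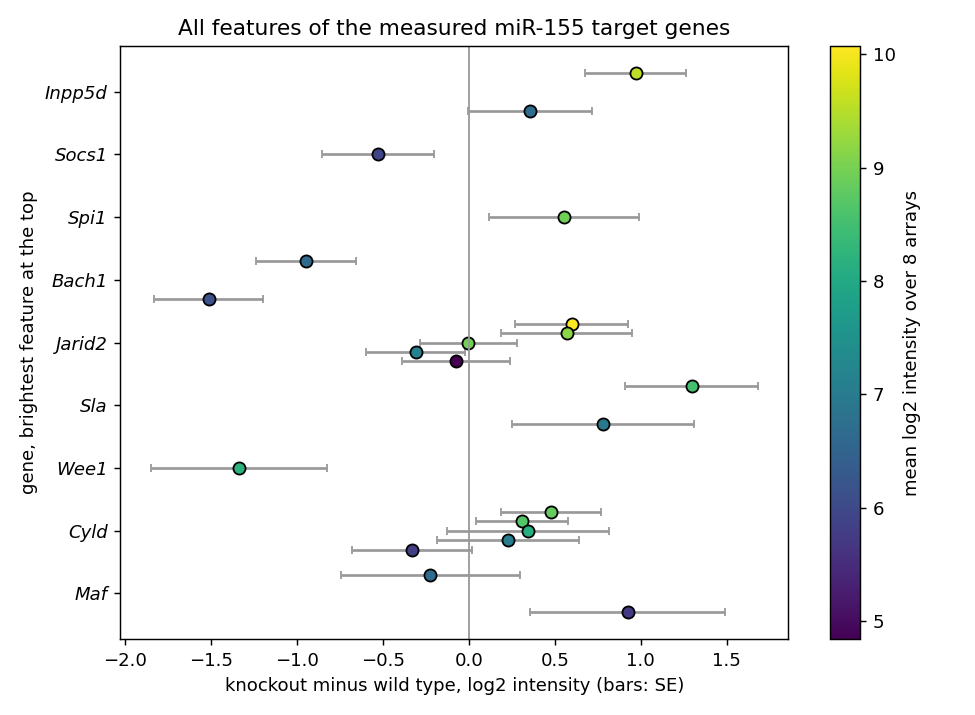
Knockout minus wild type in log2 intensity (horizontal axis, bars SE) for all 21 features of the 9 genes, the brightest of each gene at the top of its row and colour giving the mean level. The features of Bach1 both lie below 0, those of Inpp5d and Sla above it, and those of Jarid2, Cyld and Maf on either side.

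The other genes of each target's pathway were then read from the same fit, and 0 of them passed an adjusted p of 0.05 in limma. Counts below are at an unadjusted p under 0.05, which 7.7% of all genes had as higher and 6.62% as lower, and the list medians stand beside 0.06 for all genes. The lists were written with earlier results of these data known. Apart from Hmox1, the genes named have the smallest unadjusted p of their list in this limma fit. A lack of overlap in them follows in part from that choice and is no further support. Over all genes, 5.27% lay wholly above and 2.56% wholly below the wild type. Around SHIP1, 19 PI3K, AKT and inositol phosphatase genes had a median of -0.14, with 4 higher and 3 lower. Pik3cd, the catalytic PI3K subunit of leukocytes, averaged 10.68 ± 0.25 in the knockout, against 9.14 ± 0.61 in the wild type (SD, n = 4 each). Pik3ap1, an adaptor that brings PI3K to the B cell receptor complex, averaged 11.97 ± 0.31 in the knockout, against 10.70 ± 0.34 in the wild type. Neither gene overlapped between the genotypes, while the regulatory subunit Pik3r1 averaged 8.24 ± 0.75 in the knockout, against 9.88 ± 1.15 in the wild type.

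In the SOCS and JAK-STAT list of 18 genes the median was -0.12, with 0 higher and 3 lower. Socs2, a feedback inhibitor of growth hormone and STAT5 signalling, averaged 7.33 ± 1.08 in the knockout, against 9.43 ± 0.25 in the wild type with no overlap (SD, n = 4 each). The related feedback gene Cish averaged 8.14 in knockout and 9.18 in wild-type spleens. Stat3, a transcription factor of cytokine signalling, averaged 12.95 in knockout and 13.88 in wild-type spleens, with differences of -1.67 in males and -0.17 in females. Around PU.1, 13 genes had a median of 0.20, with 3 higher and 0 lower. These were Irf8, a partner of PU.1, with 11.45 in the knockout, against 10.48 in the wild type, Ptprc, the pan-leukocyte surface phosphatase CD45, with 9.73 in knockout and 8.53 in wild-type spleens, and the B cell receptor component Cd79a, with 7.99 in knockout and 7.13 in wild-type spleens.

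Although Cebpb itself was not measured, 11 genes of its family and targets had a median of -0.05, with 0 higher and 3 lower. They were the arginase gene Arg1, at 6.99 in the knockout, against 9.32 in the wild type, Lcn2, which encodes an iron-siderophore binding protein, at 12.76 in knockout and 14.60 in wild-type spleens, and the pseudokinase gene Trib1, at 9.72 in knockout and 10.98 in wild-type spleens. Without the Mim2 arrays Lcn2 differed by -0.40 and Trib1 by -0.28, at unadjusted p of 0.326 and 0.578 in limma, and Trib1 in Mim1-6 (11.35) lay above every wild-type array. Arg1 was below the random probes in Mim2-3. The 14 partners and targets of BACH1 had a median of -0.27, with 1 higher and 2 lower. Bach2, a related repressor of B cells, averaged 9.90 in the knockout, against 8.64 in the wild type, in contrast to Bach1. The antioxidant genes Nqo1 and Gclc averaged 7.35 and 8.004 in the knockout, against 8.54 and 9.13 in the wild type. Without the Mim2 arrays Nqo1 differed by -1.28 and Gclc by -0.16, at unadjusted p of 0.0263 and 0.784 in limma. Hmox1, the classical BACH1 target, averaged 10.17 in the knockout, against 10.80 in the wild type (unadjusted p = 0.309 in limma); it was named for that role after its value had been seen.

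Of 9 Polycomb complex genes, 1 was higher and 0 lower, with a median of 0.15. The core subunit Eed averaged 10.28 ± 0.19 in the knockout, against 9.26 ± 0.38 in the wild type (SD, n = 4 each) and did not overlap. The core subunit Suz12 averaged 9.55 in knockout and 8.94 in wild-type spleens (unadjusted p = 0.0683 in limma). The histone-binding subunit Rbbp7 averaged 10.62 in knockout and 10.32 in wild-type spleens (unadjusted p = 0.399 in limma), and its difference turned to -0.12 without the Mim2 arrays. The 14 genes around SLAP had the highest median, 0.72, with 8 higher and 0 lower. The kinase gene Syk averaged 13.21 in the knockout, against 11.82 in the wild type, and the SLAP relative Sla2 7.35 in knockout and 5.93 in wild-type spleens. Cd79b averaged 12.20 in knockout and 10.50 in wild-type spleens, and none of these 3 genes overlapped between the genotypes. Of these 14, 5 are also B or T cell markers, and the remaining 9 had a median of 0.59 with 4 at that p. The part of B and T cells in the values of those 9 was not tested.

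Of the 12 mitotic entry genes around WEE1, 11 were lower and 1 higher, with a median of -0.64 and 3 lower at that p. Btrc, whose product marks WEE1 for destruction, averaged 8.15 ± 1.17 in the knockout, against 9.49 ± 0.05 in the wild type (SD, n = 4 each). Ccnb2, a mitotic cyclin, averaged 5.53 in knockout and 6.62 in wild-type spleens, and the checkpoint kinase gene Chek1 5.35 in knockout and 6.46 in wild-type spleens. Each was above the random probes on 2 of the 4 knockout arrays, so these sizes are inexact. In males Btrc differed by -2.34 and Ccnb2 by -1.97, in females Btrc differed by -0.34 and Ccnb2 by -0.21, and the knockout values that were low in Wee1, those of the Mim2 arrays, were low in both.

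Of 17 genes around CYLD, 3 were higher and 1 lower, with a median of 0.25. The kinase gene Ikbkb averaged 11.95 in the knockout, against 10.99 in the wild type, and the NF-kB subunit gene Nfkb1 9.41 ± 0.15 in knockout and 8.60 ± 0.13 in wild-type spleens (SD, n = 4 each). The deubiquitinase gene Otud7b averaged 8.59 in knockout and 9.92 in wild-type spleens. None of the 3 overlapped between the genotypes. Around c-MAF, 13 genes had a median of 0.13, with 2 higher and 2 lower. Il21r, the interleukin 21 receptor gene, averaged 10.04 in the knockout, against 8.52 in the wild type. The MAF relative Nrl averaged 6.37 in knockout and 5.25 in wild-type spleens and exceeded the random probes in only 1 wild-type spleen.

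Without the Mim2 arrays fewer pathway genes reached an unadjusted p under 0.05 in limma, as did fewer of all genes, 2.76% as higher and 3.41% as lower. The SLAP list then had a median of 0.44 with 1 of 14 genes higher at that p, and the WEE1 list a median of -0.16 with 7 genes lower and 5 higher, 0 of them at that p. The list medians changed sign for PI3K (0.002), PU.1 (-0.04), Polycomb (-0.07) and c-MAF (-0.15), beside 0.03 for all genes. Pik3cd, Pik3r1, Socs2, Syk, Otud7b, Nqo1 and Il21r remained at an unadjusted p under 0.05 with the same sign. The differences of Stat3 (-0.17), Ptprc (0.62), Cd79a (0.48), Cd79b (0.93), Sla2 (0.78), Ikbkb (0.50), Arg1 (-1.54), Socs2 (-1.34), Il21r (0.98), Nrl (0.72), Btrc (-0.34) and Ccnb2 (-0.21) were then over 1.5 times smaller in size than on all arrays.

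**Figure D4:**
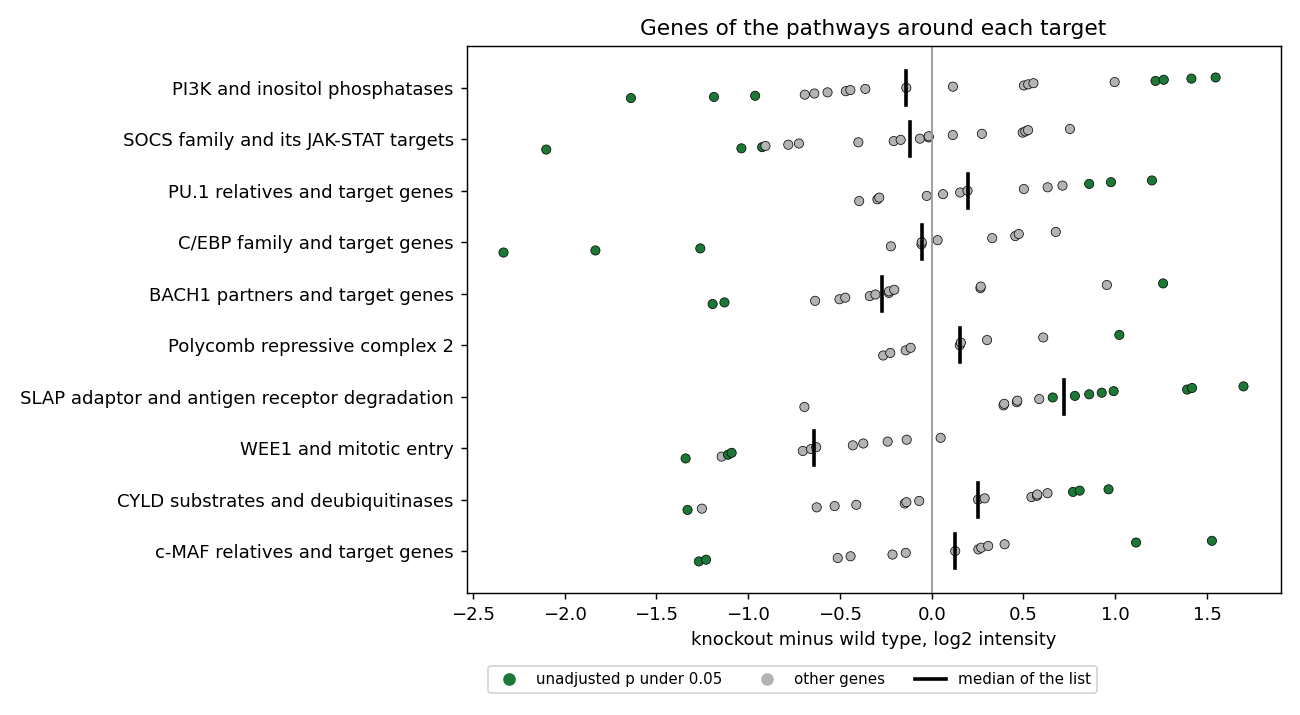
Knockout minus wild type in log2 intensity (horizontal axis) of the genes in the 10 pathway lists, each point a gene by its brightest feature, green at an unadjusted p under 0.05 and grey otherwise, with black bars at the list medians. The SLAP list has the highest median, 0.72, and the WEE1 list the lowest, -0.64.

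Cell type markers also differed between the genotypes on these arrays. The mean of 12 B cell markers ran from 9.80 to 10.70 in the knockout and from 8.84 to 9.31 in the wild type, and that of 11 T cell markers from 8.60 to 9.33 in knockout and from 7.76 to 8.40 in wild-type spleens. For the 12 macrophage markers the means were 9.84 to 10.84 in knockout and 9.56 to 10.03 in wild-type spleens. Neutrophil markers, 10 genes, ran from 8.19 to 8.56 in the knockout and from 8.98 to 9.23 in the wild type. Erythroid markers, 10 genes, ran from 9.57 to 10.45 in knockout and from 10.17 to 10.48 in wild-type spleens. Genes of mammary epithelium, which are not typical of spleen, were bright: the mean of 13 was 10.90, 10.76, 7.75 and 9.42 in Mim1-5, Mim1-6, Mim2-2 and Mim2-3, against 11.38 to 11.66 in the wild type. Exocrine pancreas markers, 10 genes, ran from 6.58 to 7.18 in the knockout and from 5.59 to 5.71 in the wild type.

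At an unadjusted p under 0.05, 9 of 12 B cell, 7 of 11 T cell and 3 of 12 macrophage markers were higher, with 0 lower, and 4 of 10 neutrophil, 1 of 10 erythroid and 10 of 13 mammary markers were lower, the mammary list also having 1 higher. Of the pancreas markers, 8 of 10 were higher. Over all genes 7.7% were higher and 6.62% lower at that p, so the erythroid count was near that share. The log2 of the summed intensity of the B cell markers was 15.04 to 15.72 in knockout and 15.07 to 15.21 in wild-type spleens, and that of the T cell markers 12.73 to 13.54 in knockout and 12.20 to 12.68 in wild-type spleens. For macrophage markers this sum was 14.54 to 15.08 in knockout and 14.09 to 14.82 in wild-type spleens. For neutrophil markers it was 13.11 to 14.66 in knockout and 14.72 to 15.35 in wild-type spleens, with no overlap. Erythroid markers summed to 16.37 to 16.98 in knockout and 16.54 to 16.76 in wild-type spleens. The mammary sum was 12.79 to 16.42 in knockout and 16.74 to 16.97 in wild-type spleens, and the pancreas sum 10.08 to 10.86 in knockout and 9.21 to 9.38 in wild-type spleens, neither overlapping. Every B cell, T cell, macrophage and erythroid marker exceeded the random probes on all 8 arrays. Elane, Ngp and Mmp8 of the neutrophil list, Wap, Krt19 and Cldn3 of the mammary list and 6 of the pancreas list failed to do so on at least 1 array. Without the Mim2 arrays 4 of 12 B cell, 1 of 11 T cell and 5 of 10 pancreas markers were higher at that p, and 5 of 10 neutrophil, 4 of 10 erythroid and 3 of 13 mammary markers lower, with 1 mammary marker higher. The macrophage list then had 0 in either direction. Over all genes 2.76% were then higher and 3.41% lower at that p. The part of these cell types in the values of the 9 targets was not tested.

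**Figure D5:**
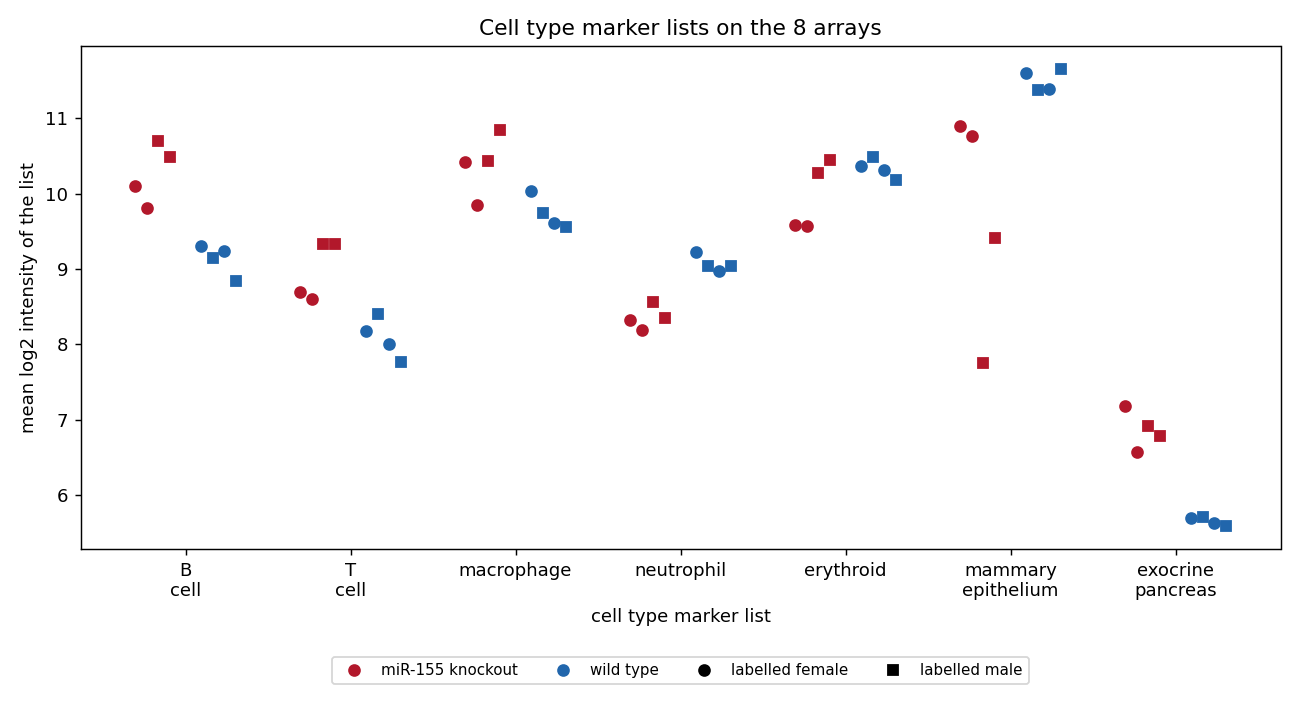
Mean log2 intensity (vertical axis) of 7 cell type marker lists on each array, knockout at the left of each pair and wild type at the right, circles for labelled females and squares for labelled males. The means of the B cell, T cell and pancreas lists were higher on every knockout array than on any wild-type array. Those of the neutrophil and mammary lists were lower, the mammary mean of Mim2-2 being 7.75. Single markers of a list did not all follow its mean.

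The genes whose level over the 8 arrays was most like each target's were sought among 15827 genes above the random probes on every array, with Pearson's r as a description and no test. Ptpn22, Cxcl13 and Lrrfip1 followed Sla, at r of 0.994, 0.992 and 0.991. Inpp5d was followed by Pank1 (0.991), Slfn10-ps (0.982) and Acp5 (0.979), and Bach1 by Htatip2 (0.974), Osbpl5 (0.971) and Ctsb (0.967). Nearest to Wee1 were Parp9, Tmem181b-ps and Chmp1b (0.990, 0.983 and 0.982), and nearest to Spi1 Tceal6, Cxcr2 and Rps24-ps2 (0.989, 0.985 and 0.980). For Jarid2 they were Trappc2l, Igkv6-23 and Gm13212 (0.989, 0.986 and 0.978), and for Cyld Gm3345, Prrx1 and Gm4203 (0.998, 0.982 and 0.982). For Socs1 they were Clasp2, 5033425G24Rik and Ttll5, at 0.974 to 0.953. Maf had the lowest likeness of the 9 at each rank, with Orai2-ps, Tubgcp3 and A430105J06Rik at 0.954 to 0.941.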

How the data were processed

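Values came from 8 arrays of 1 colour, 1 per spleen. The authors deposited 1 table per array with a linear intensity per feature, made with RMA (background correction, normalization between arrays, summary of probes) per the submitters' processing notes. The RMA version is not stated in the sources used here. Per the file headers, 44155 of 44170 features rest on 3 probes, and positions are those of build MM9. A standard error score that the authors deposited beside each intensity was not used. An entry of 5000 random probes gave the background. A deposited series table of 21856 of the same intensities held the brightest feature of 6 of the 9 targets.

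Intensities were taken to log2 without further normalization. Symbols were updated through Entrez numbers, of which 21583 of 24203 matched the NCBI table of assembly GRCm38.p6. A gene was read from its brightest feature by mean log2. Differences were fitted on all features with limma 3.58.1 in R 4.3.3 (lmFit, eBayes), with labelled sex as a term, and with a genotype by sex interaction, two-sided, adjusted by Benjamini-Hochberg with a threshold of 0.05. Single targets also had an exact permutation test over arrays. Fits were tested on simulated data with noise drawn from the moderated variances. Noise from each feature's own sample variance was tried first and was changed because fewer of the known differences than required were recovered. With either noise, few of the smallest simulated differences passed the adjusted p threshold, so a target that did not pass may still differ. Alternatives covered the sex term, scaling, filters, variance model, weights, floor, features per gene, source table and left-out arrays.

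All 9 measured targets are named, with the 3 genes of smallest p per pathway list and the 3 most like each target. A result that this rule would name is not reported here. Targets and lists were chosen with earlier results of these data known. The number of arrays limits the precision.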

Additional observations from a re-analysis of the deposited data

Results flagged for a closer look

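Some values lay far from the other 3 arrays of their genotype by Dixon's test, which by chance marks about 1 in 20 groups, and 116 groups were tested. All values so marked are listed here, and they are about as many as that share gives. Among the targets, Jarid2 read 9.92 in Mim1-6, against 10.47 to 10.56 in the other 3 knockouts, and Maf read 5.05 in Mim2-2, against 7.01 to 7.12. Among the pathway genes, Arg1 read 5.08 in Mim2-3, against 7.43 to 7.72 in the other knockouts. Rbbp7 read 9.86 in Mim1-5, against 10.83 to 10.93 in the other knockouts, and 9.90 in WT-2, against 10.41 to 10.51 in the other wild types. Nrl read 6.39 in WT-4, against 4.79 to 4.99 in the other wild types.

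The knockout arrays of the labelled sexes moved to opposite sides of the wild-type arrays of their sex in 2 dimmer features of the targets. In the second Inpp5d feature the difference was -0.38 in males and 1.09 in females, so that males minus females was -1.47 (limma adjusted p = 0.288). In the third Jarid2 feature it was -0.32 in males and 0.32 in females, so that males minus females was -0.64 (limma adjusted p = 0.617). Neither passed the test of that difference. How many of all features moved in this way was not counted, so the pattern is not read as particular to these genes.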

How the results depend on the processing

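None of the 9 targets passed an adjusted p of 0.05 under any of the 18 alternatives, and 7 kept their sign in each, Socs1 and Bach1 over the 17 that measured them. Socs1 kept its sign only at -0.004 without the Mim2 arrays. Bach1 lay between -1.23 and -0.82, Inpp5d between 0.57 and 1.10 and Sla between 0.80 and 1.54. Maf turned to 0.35 with the mean of its features, and without 1 array it ran from -0.48 to 0.35, turning positive without Mim2-2 (0.35) and WT-2 (0.12). Without both Mim2 arrays, a set chosen with earlier results known, Maf was 0.56 and Spi1 -0.23, and 0 targets were higher and 1 lower at an unadjusted p under 0.05, with 668 genes higher and 825 lower. On all arrays these counts were 2, 2, 1860 and 1600. The fit without both Mim2 arrays set Mim1-5 and Mim1-6 against WT-1 and WT-3 alone, because labelled sex stayed in it. Without 1 array 1 to 2 targets were lower, the count being 1 without Mim1-5, Mim2-2, Mim2-3, WT-1 or WT-4. In each of those fits Bach1 remained and Wee1 did not, with unadjusted p of 0.0553 to 0.0836 in limma. Without 1 array 1107 to 2093 genes were higher and 931 to 1908 lower. The lowest counts of higher genes came without WT-4 (1107), and of lower genes without WT-2 (931), WT-4 (983) and Mim2-3 (1061). The trend and robust variance model called 16 features, none of them a brightest feature of a target. The series table, with 6 targets, had 1 lower, Wee1, because it does not hold the brightest feature of Bach1. Apart from that missing feature, the cause of these shifts was not tested. No paired analysis was possible because knockout and wild-type animals share no numbering. Centring each array on its median and quantile normalization turned no target, and the median of all genes was 0.04 and 0.06 with them. The pathway and marker lists without the Mim2 arrays were an alternative chosen after seeing the data.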
